A study of Mus musculus with 27 samples.

Results

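The hepatic Cyp2b and Cyp3a cytochrome P450s are described here across 9 diets: Cyp2b9, Cyp2b10, Cyp2b13, Cyp3a11, Cyp3a13, Cyp3a16 and Cyp3a25. Probe sets of an Affymetrix mouse expression array were taken when the platform table gave them exactly 1 of these 7 symbols. This found 9 of the 45101 probe sets, 3 for Cyp2b10 and 1 for each of the other genes, among 18194 genes with a probe set of their own. The rule that picks the probe sets uses no measured value, though the genes themselves were chosen with earlier results of these data known.

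Liver RNA came from male C57BL/6 mice, 10 weeks old, that ate their diet for 3 weeks, were killed in the morning and were not fasted, with n = 3 mice per diet and 1 array per mouse. Diet restriction was lab chow, a natural ingredient diet, given at 75% of the ad libitum amount, and lab chow was also fed freely. The atherogenic diet was high in fat, sucrose and cholesterol and held cholic acid, a bile acid. The Western diet drew 42% of calories from fat, and further diets were high fat, high fructose (60% fructose), EFA deficient (without essential fatty acids) and low n-3 (7% sunflower oil). The study gives the EFA deficient diet more sucrose than AIN-93 purified, so sucrose and the lack of essential fatty acids cannot be told apart. For low n-3, the array labels name sunflower oil only in the description, while their titles speak of supplemented DHA. The study's methods also name sunflower oil for this diet, so the group follows the description. All were set against the AIN-93 purified diet as control, so diet restriction differed from it in both the ration and the chow. Values are log2 intensities as deposited. The level log2(100), or 6.64, is called the detection level, and a gene entered the tests only if its mean passed it on at least 1 diet.

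Cyp2b and Cyp3a enzymes sit in the endoplasmic reticulum of hepatocytes and oxidise drugs, steroids and bile acids, which makes them easier to conjugate and excrete. Their transcription is controlled by 2 nuclear receptors that pair with RXR, the constitutive androstane receptor CAR (gene Nr1i3), whose classic mouse target is Cyp2b10, and the pregnane X receptor PXR (gene Nr1i2), whose classic mouse target is Cyp3a11. Cyp2b9 and Cyp2b13 are known as transcripts of female mouse liver, kept low in adult males by pulsed growth hormone, and Cyp3a16 as a form of fetal and newborn liver. CAR and PXR bind paired hexamers of the type AGGTCA or AGTTCA.

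RefSeq promoter windows (build GRCm38.p6) matched 7 of the 7 genes, and the 250 bases before the start of transcription were read on the strand of the gene. The Cyp2b genes lie side by side on chromosome 7 in the order Cyp2b10, Cyp2b13, Cyp2b9, and Cyp3a11 and Cyp3a25 are neighbours on chromosome 5. Windows are shown for the 3 Cyp2b genes, whose arrays gave the widest differences between diets, and for Cyp3a11 and Cyp3a25, the tested Cyp3a genes that held a match. They lie at chr7:26173159-26173408 (plus strand) for Cyp2b9, chr7:26061245-26061494 (plus) for Cyp2b13, chr7:25897408-25897657 (plus) for Cyp2b10, chr5:145879855-145880104 (minus) for Cyp3a11 and chr5:146009619-146009868 (minus) for Cyp3a25. Capitals mark every match to the hexamers AGGTCA and AGTTCA on either strand.
Cyp2b9: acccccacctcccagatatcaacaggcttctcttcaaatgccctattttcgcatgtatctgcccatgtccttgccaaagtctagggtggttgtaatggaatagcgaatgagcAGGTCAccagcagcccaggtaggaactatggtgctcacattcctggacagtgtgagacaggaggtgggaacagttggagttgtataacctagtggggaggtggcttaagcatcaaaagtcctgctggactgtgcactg
Cyp2b13: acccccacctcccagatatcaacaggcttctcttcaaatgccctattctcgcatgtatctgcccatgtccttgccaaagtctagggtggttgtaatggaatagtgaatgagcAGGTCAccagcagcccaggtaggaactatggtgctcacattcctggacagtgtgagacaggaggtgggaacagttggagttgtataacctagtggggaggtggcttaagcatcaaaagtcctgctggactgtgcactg
Cyp2b10: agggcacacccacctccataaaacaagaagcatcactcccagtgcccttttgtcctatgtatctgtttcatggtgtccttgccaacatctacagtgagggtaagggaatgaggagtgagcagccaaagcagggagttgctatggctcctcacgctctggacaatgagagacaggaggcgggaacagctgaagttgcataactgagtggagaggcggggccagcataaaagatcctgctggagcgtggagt
Cyp3a11: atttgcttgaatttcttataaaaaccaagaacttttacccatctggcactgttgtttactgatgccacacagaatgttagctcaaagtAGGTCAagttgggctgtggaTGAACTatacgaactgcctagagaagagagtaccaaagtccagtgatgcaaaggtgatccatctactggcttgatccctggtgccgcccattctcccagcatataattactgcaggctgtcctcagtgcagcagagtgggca
Cyp3a25: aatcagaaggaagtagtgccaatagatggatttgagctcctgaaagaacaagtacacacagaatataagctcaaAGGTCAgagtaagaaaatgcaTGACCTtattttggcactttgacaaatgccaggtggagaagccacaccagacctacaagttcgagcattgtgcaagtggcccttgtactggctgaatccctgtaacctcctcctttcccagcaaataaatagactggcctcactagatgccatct
The windows of Cyp2b9 and Cyp2b13 shared 248 of 250 bases, and the substitutions between them were T48C and C104T (Cyp2b9 base, position from the 5′ end of the window, Cyp2b13 base). Cyp2b10 shared 182 bases with Cyp2b9 after alignment, or 72.8% of the window. Cyp2b9 and Cyp2b13 each held 1 AGGTCA, at the same position, and Cyp2b10 held neither hexamer. Cyp3a11 held 1 AGGTCA and 1 AGTTCA, with the AGTTCA read on the other strand, and Cyp3a25 held 2 copies of AGGTCA, 1 on each strand. Cyp3a13 and Cyp3a16 held neither. RefSeq lists 2 windows for Cyp3a25, and its matches were counted only in the 1 shown. Of 32851 mouse promoter windows of this length, 14% held AGGTCA, 11.8% held AGTTCA and 24.2% held either. The STAT5 motif TTCNNNGAA, whose letters read the same on both strands, was in none of the 7 windows and in 7.02% of all windows. These are matches of letters within 250 bases, and binding was not measured. Sequence further from the start was not searched, so a gene without a match here may hold these hexamers elsewhere.

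The 27 arrays had medians of the kept probes between 8.22 and 8.38, and the lowest value of the deposited scale, 2.29, held for 35.8% to 39.7% of probe sets. All 8 hepatocyte markers were detected. Of the 8 macrophage markers 6 were detected. The summed intensity of all 8 ran between 6938 and 12610 in atherogenic livers, 1331 and 2078 in Western livers and 2553 and 3384 in AIN-93 purified livers. The part of these cells in the results for the atherogenic diet was not tested. In diet-restricted livers the macrophage sum ran between 1018 and 2708, which overlapped control. Their hepatocyte markers summed to between 254800 and 284300, against 238400 to 253100 in AIN-93 purified livers. The 5 stellate cell markers, of which 2 were detected, summed to between 78.5 and 109, against 157 to 182. The part of these differences in the results for diet restriction was not tested. None of the 4 cholangiocyte markers on the array passed the detection level. In RNA of whole liver, fewer cells of a type and less RNA per cell cannot be told apart.

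Cyp2b9 (probe set 1419590_at) was bright in diet-restricted livers and below the detection level on every array of the other 8 diets. It measured 11.41, 11.24 and 11.53 in diet-restricted livers, against 2.35, 2.37 and 2.37 in AIN-93 purified livers. This is at least 26.9-fold higher than control (limma, adjusted p = 1.0e-09), where the bound sets the diet-restricted mean against the detection level and the p belongs to the fitted difference. Cyp2b9 entered the tests through diet restriction alone, so it had to differ there and this p is no support. Freely fed lab chow left it at 2.37 on all 3 arrays. Single arrays on fat-rich diets stood above the rest while still below detection: the third atherogenic array at 5.67, the third Western array at 4.56 and the first high fat array at 3.71. None of these diets passed the test against control for Cyp2b9, with adjusted p of 0.27 for atherogenic, 0.44 for Western and 0.62 for high fat.

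Cyp2b13 (1449479_at), the gene beside Cyp2b9, was also above the detection level on diet restriction alone. It measured 7.38, 7.22 and 6.81 in diet-restricted livers, against 2.29 on all 3 arrays of AIN-93 purified livers. This is at least 1.41-fold higher (adjusted p = 3.7e-19). The control arrays all sat at the lowest value, which hides the spread between mice, so this p may be too small. Cyp2b13 also entered the tests through diet restriction alone, so this p is no support. On the other 7 diets no array was above 2.47.

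Cyp2b10, the CAR target, was highest in diet-restricted livers, and lab chow came next in the order of diets. The mean of its 3 probe sets was 10.03, 8.84 and 9.12 in diet-restricted livers, against 2.29, 2.29 and 2.30 in AIN-93 purified livers, at least 6.44-fold higher (adjusted p = 1.7e-13). Cyp2b10 entered the tests through diet restriction alone, so this p is no support. In lab chow livers it was 5.78, 4.72 and 5.43, above every control array (adjusted p = 2.5e-07). Both diets are below detection there, so no size is given for this difference. All 3 probe sets passed the test on lab chow, and 1 of them (1425645_s_at) reached 7.06 on the first lab chow array. High fat livers, also below detection, gave 2.95, 3.27 and 3.73 (adjusted p = 0.025), where 1 of the 3 probe sets passed alone. That call was lost without any single control array (adjusted p 0.059 to 0.066) and without the second (0.050) or the third (0.11) high fat array. With values below detection set to the detection level, neither the lab chow nor the high fat difference of Cyp2b10 remained. Of the 3 probe sets, 1422257_s_at and 1425645_s_at are of the type that can match several transcripts, and a share of their signal from another Cyp2b gene was not tested. The third, 1451787_at, read 9.13, 7.94 and 8.27 in diet-restricted livers and 4.07, 3.19 and 4.34 in lab chow livers, against 2.29 in AIN-93 purified livers. Across the 8 steps between neighbours in the order of diets, the arrays failed to overlap only at the steps below diet restriction and below lab chow.

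**Figure D1:**
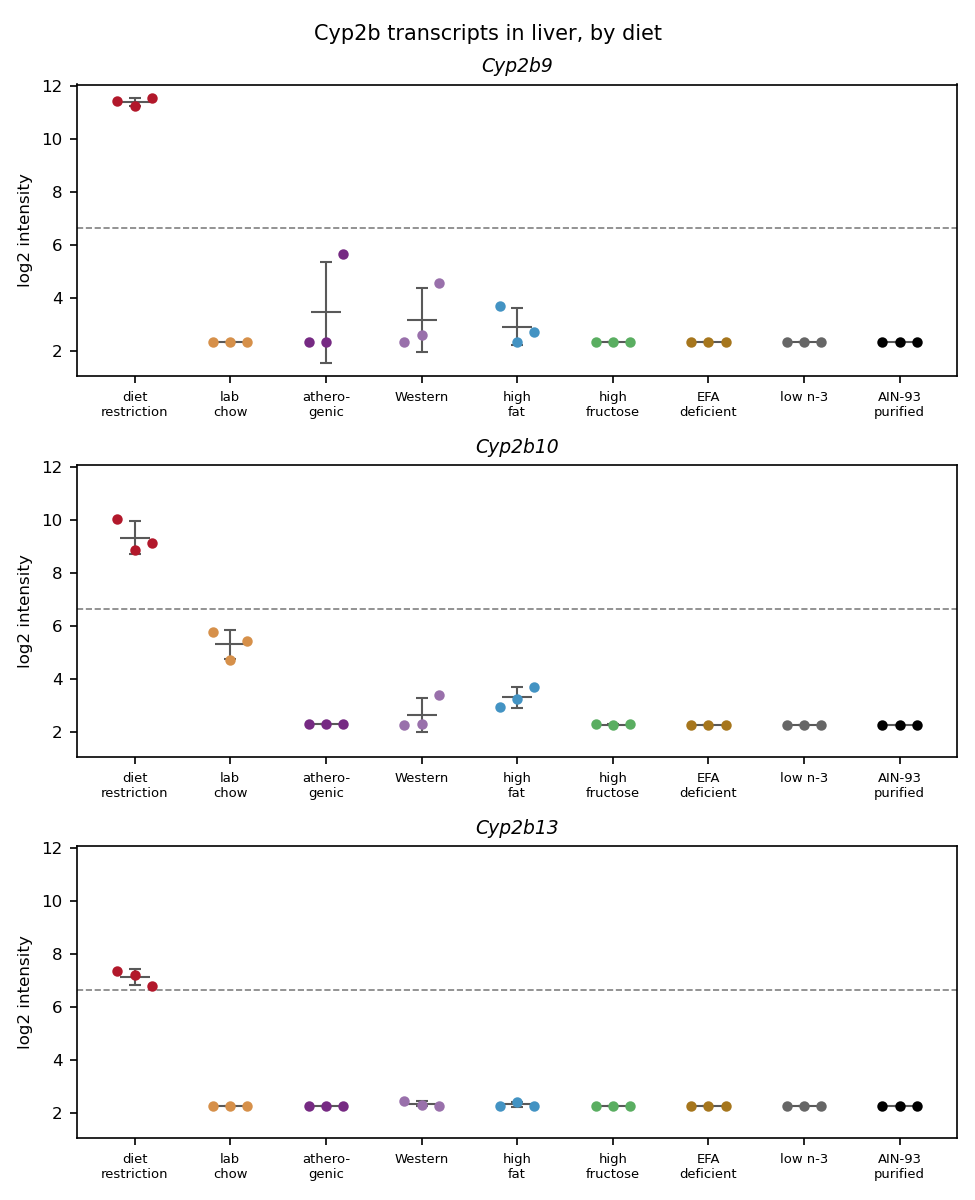
Log2 intensity of Cyp2b9, Cyp2b10 and Cyp2b13 (y axis) in each liver, by diet (x axis), with 3 mice per diet. Points are arrays, bars the mean and SD, and the dashed line the detection level of 6.64. Diet-restricted livers lie above the line for each gene, and lab chow livers lie between the line and the other diets for Cyp2b10.

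Cyp3a11 (1416809_at), the PXR target, was bright on every array and highest on the 2 chow-based diets. It measured 15.22, 14.89 and 15.04 in diet-restricted livers and 15.24, 15.15 and 15.24 in lab chow livers, against 14.05, 14.06 and 13.65 in AIN-93 purified livers. These are 219% of control on diet restriction (95% confidence interval 158 to 304, adjusted p = 0.0024) and 245% on lab chow (176 to 340, adjusted p = 6.7e-04). No array of either diet overlapped control. Atherogenic livers read 14.88, 14.97 and 14.72, or 191% of control (137 to 265, adjusted p = 0.011), and Western livers 14.50, 14.70 and 14.90, or 172% (124 to 238, adjusted p = 0.033). The Western call was lost without the second (adjusted p = 0.069) or the third (0.10) Western array and without the second (0.052) or the third (0.14) control array, and the atherogenic call without the third control array (0.065). The lowest diet mean of Cyp3a11 was that of EFA deficient livers, at 13.82, 13.40 and 12.64, or 64.4% of control (46.4 to 89.5), with arrays that overlapped control, and it did not pass the test (adjusted p = 0.085). It passed without the first EFA deficient array (adjusted p = 0.014). In the order of diet means the only gap without overlap lay between Western and high fructose.

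Cyp3a13 (1419523_at), a further Cyp3a enzyme of liver and gut, was highest on diet restriction. It measured 12.95, 12.27 and 12.42 in diet-restricted livers, against 11.46, 11.34 and 11.58 in AIN-93 purified livers, or 212% of control (169 to 267, adjusted p = 8.4e-05). Atherogenic livers read 11.94, 12.32 and 12.00, or 154% (123 to 194, adjusted p = 0.014), a call lost without the second atherogenic (adjusted p = 0.065) or second control array (0.062). Lab chow livers read 11.81, 12.09 and 11.84, all above the control arrays, and at 137% (109 to 172) did not pass (adjusted p = 0.076). At the low end, high fructose livers gave 78.1% of control (62.2 to 98.2, adjusted p = 0.17) and EFA deficient livers 77.7% (61.9 to 97.7, adjusted p = 0.16). The EFA deficient value passed without the third array of that diet (adjusted p = 0.017), which at 11.51 lay above the other 2 at 10.83 and 10.94.

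Cyp3a25 (1424973_at), an adult liver form next to Cyp3a11, passed the test on 5 diets, more than any of the other genes. It measured 14.97, 14.82 and 14.66 in diet-restricted livers, against 12.82, 12.97 and 12.72 in AIN-93 purified livers, or 393% of control (319 to 486, adjusted p = 7.3e-09). Atherogenic livers, at 14.35, 14.57 and 14.53, stood at 312% (253 to 386, adjusted p = 1.1e-07), and lab chow livers, at 14.44, 14.11 and 14.21, at 267% (216 to 329, adjusted p = 9.9e-07). Western livers, at 14.16, 14.16 and 13.88, stood at 234% (189 to 289, adjusted p = 7.0e-06), and high fat livers, at 13.44, 13.52 and 13.80, at 168% (136 to 207, adjusted p = 0.0019). On these 5 diets every array exceeded every control array, and each call held with any single array left out. In the order of means, diet restriction did not overlap the atherogenic diet, Western did not overlap high fat, and high fat did not overlap low n-3. The high fructose arrays, at 12.53, 12.66 and 12.36, all lay below control, at 80.0% (64.8 to 98.8), which did not pass (adjusted p = 0.18).

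Cyp3a16 (1421741_at), the fetal form, lay at the lowest value on 26 of the 27 arrays and at 2.33 on 1 Western array. It did not pass the filter and was not tested. Its promoter window shared 199 bases with that of Cyp3a11 after alignment, or 79.6% of the window.

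**Figure D2:**
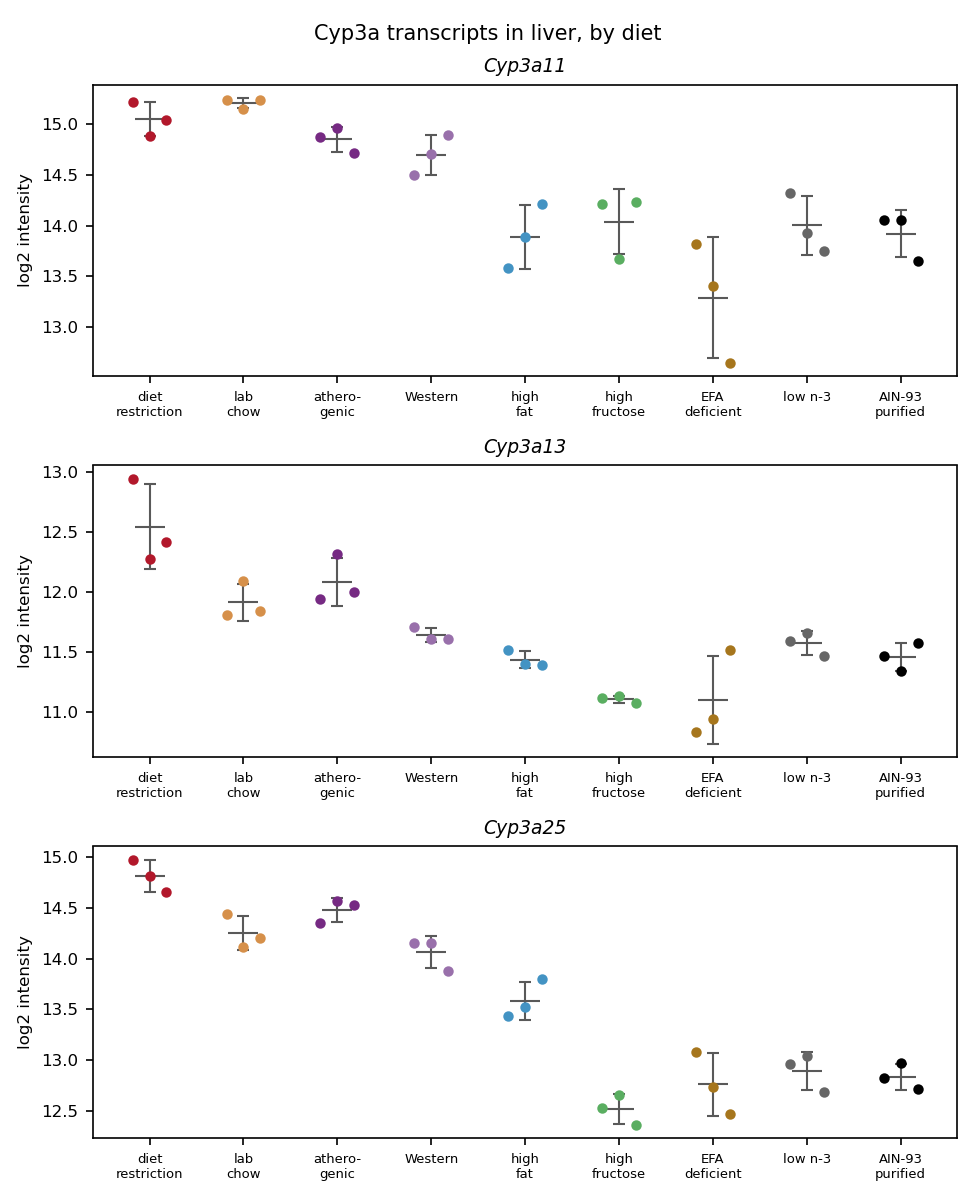
Log2 intensity of Cyp3a11, Cyp3a13 and Cyp3a25 (y axis, with its own range for each gene and not starting at 0) in each liver, by diet (x axis), with 3 mice per diet. Points are arrays and bars the mean and SD. For Cyp3a25 all arrays of the first 5 diets from the left lie above the control arrays, and for Cyp3a11 the same holds for the first 4.

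**Figure D3:**
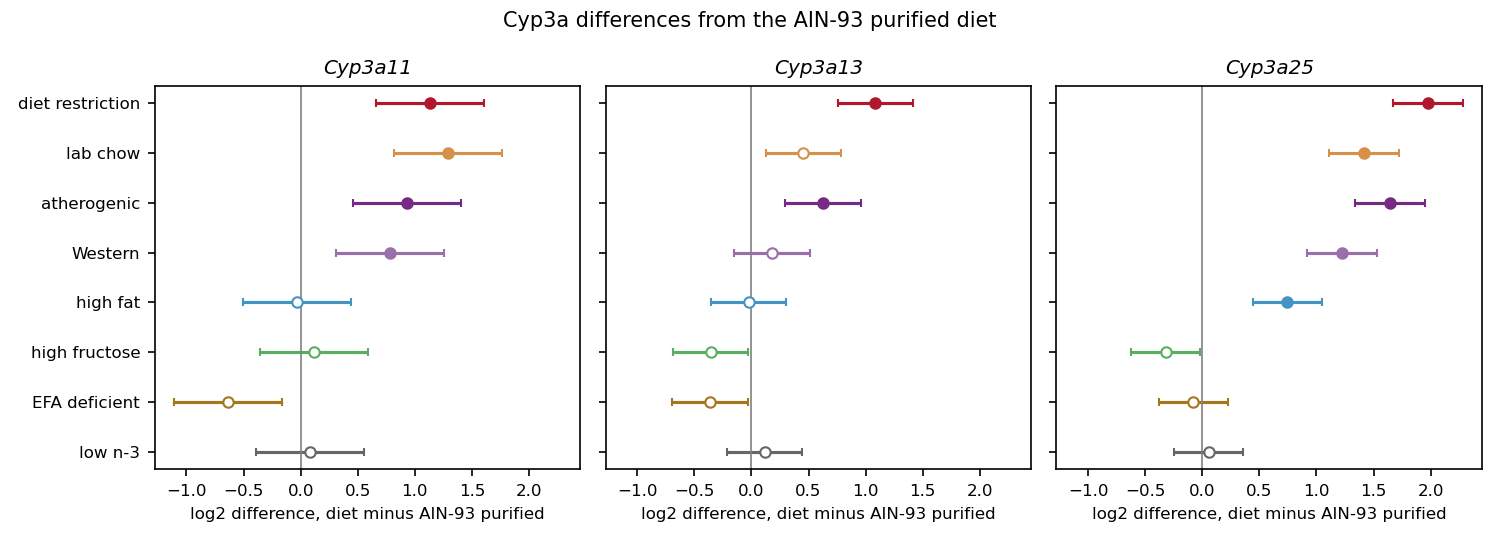
Log2 difference of each diet from AIN-93 purified (x axis) for the 3 tested Cyp3a genes, by diet (y axis), with 95% confidence intervals. Filled points passed the adjusted test. Diet restriction has the highest point for Cyp3a13 and Cyp3a25, at 1.08 and 1.98, and lab chow for Cyp3a11, at 1.29.

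Counted by diet, the 6 tested P450s were called higher or not called, and none was called lower in any comparison. Diet restriction raised 6 of 6, where 13.5% of the 6478 tested genes were called higher and 16% lower. The 3 Cyp2b genes passed the filter through diet restriction alone, so that they had to differ there and their part of the count is no support. Lab chow raised Cyp3a11, Cyp3a25 and, below detection, Cyp2b10, or 3 of 6, against 2.02% of tested genes higher and 2.19% lower, and 2 of 6 with values below detection set to that level. The atherogenic diet raised the 3 Cyp3a genes, against 9.03% higher and 5.88% lower, and the Western diet raised Cyp3a11 and Cyp3a25, against 4.31% higher and 4.48% lower. The high fat diet raised Cyp3a25 and, below detection, Cyp2b10, against 6% higher and 3.33% lower. These comparisons share the same 3 control arrays.

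The remaining diets called 0 of 6 in limma, against 1.17% of tested genes higher and 2.73% lower on high fructose, 3.04% and 2.47% on EFA deficient, and 0.34% and 0.726% on low n-3. Without adjustment, 2 genes stood under 0.05 on high fructose (Cyp3a13 and Cyp3a25, both lower), 2 on EFA deficient (Cyp3a11 and Cyp3a13, both lower) and 0 on low n-3, and Dunnett's test after Benjamini-Hochberg adjustment called 0 on each. Low n-3 livers gave 106% of control for Cyp3a11 (76.3 to 147), 108% for Cyp3a13 (86.2 to 136) and 104% for Cyp3a25 (84.1 to 128).

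Diet restriction was also set against lab chow, the same food eaten freely. Feeding times are not given, so the amount eaten and the time since the last meal cannot be told apart. Of the 6 genes, 5 were higher in diet-restricted livers, where 19.2% of tested genes were called higher and 17.6% lower. The 3 Cyp2b genes among them again had to differ, since they entered the tests through diet restriction, which leaves Cyp3a13 and Cyp3a25, 2 of the 3 tested Cyp3a genes. Cyp2b9 and Cyp2b13 were below detection on lab chow, and their bounds were at least 26.9-fold (adjusted p = 1.9e-10) and at least 1.41-fold (adjusted p = 4.7e-20). Cyp2b10, with a mean of 9.33 ± 0.62 in diet-restricted and 5.31 ± 0.54 in lab chow livers (SD, n = 3 each), was at least 6.44-fold higher (adjusted p = 6.8e-10). Cyp3a13 stood at 155% of lab chow (123 to 195, adjusted p = 0.0037) and Cyp3a25 at 148% (119 to 182, adjusted p = 0.0048), with no overlap of arrays. Cyp3a11 stood at 89.5% of lab chow (64.5 to 124, adjusted p = 0.62), with overlapping arrays, and this interval allows a difference in either direction.

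The atherogenic and Western diets, both rich in fat and sucrose, differ mainly in cholesterol and cholic acid. None of the 6 genes passed the adjusted test between them in limma, where 11.3% of tested genes were higher and 6.5% lower. Without adjustment, 2 stood under 0.05, both higher in atherogenic livers. Cyp3a13 was at 136% of Western (108 to 171, adjusted p = 0.056) and Cyp3a25 at 134% (108 to 165, adjusted p = 0.053). In both cases the arrays did not overlap. Several other settings took 1 or both across the threshold. Cyp3a11 stood at 111% (80.1 to 154).

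The transcripts of both receptors were higher on diet restriction, and each was also called on further diets. Nr1i3 (CAR) measured 10.07, 9.78 and 9.55 in diet-restricted livers, against 7.79, 8.12 and 7.62 in AIN-93 purified livers, or 388% of control (290 to 519, adjusted p = 9.7e-07). It was also higher in high fat livers, at 9.09, 9.26 and 9.15 (250% of control, 187 to 334, adjusted p = 1.4e-04), and in Western livers, at 8.50, 8.99 and 8.83 (190%, 142 to 254, adjusted p = 0.0047). High fructose and EFA deficient livers were the low end, at 58.8% (adjusted p = 0.018) and 58.9% (adjusted p = 0.018) of control. On lab chow, where Cyp2b10 was called higher, Nr1i3 stood at 126% (94.2 to 168, adjusted p = 0.34).

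Nr1i2 (PXR) measured 8.23, 7.75 and 7.91 in diet-restricted livers, against 6.36, 6.91 and 6.40 in AIN-93 purified livers, or 266% of control (201 to 351, adjusted p = 3.8e-05). The control arrays lay on both sides of the detection level, so the size of this change is less certain. Atherogenic livers, at 7.43, 7.52 and 7.38, stood at 186% (141 to 245, adjusted p = 0.0043). On lab chow, where Cyp3a11 was at its highest mean, Nr1i2 read 6.57, 6.67 and 6.32, or 97.8% of control (74.1 to 129, adjusted p = 0.94). Against lab chow, diet-restricted livers held 308% of Nr1i3 (adjusted p = 2.4e-06) and 271% of Nr1i2 (adjusted p = 5.9e-06), and against Western, atherogenic livers held 165% of Nr1i2 (adjusted p = 0.012).

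**Figure D4:**
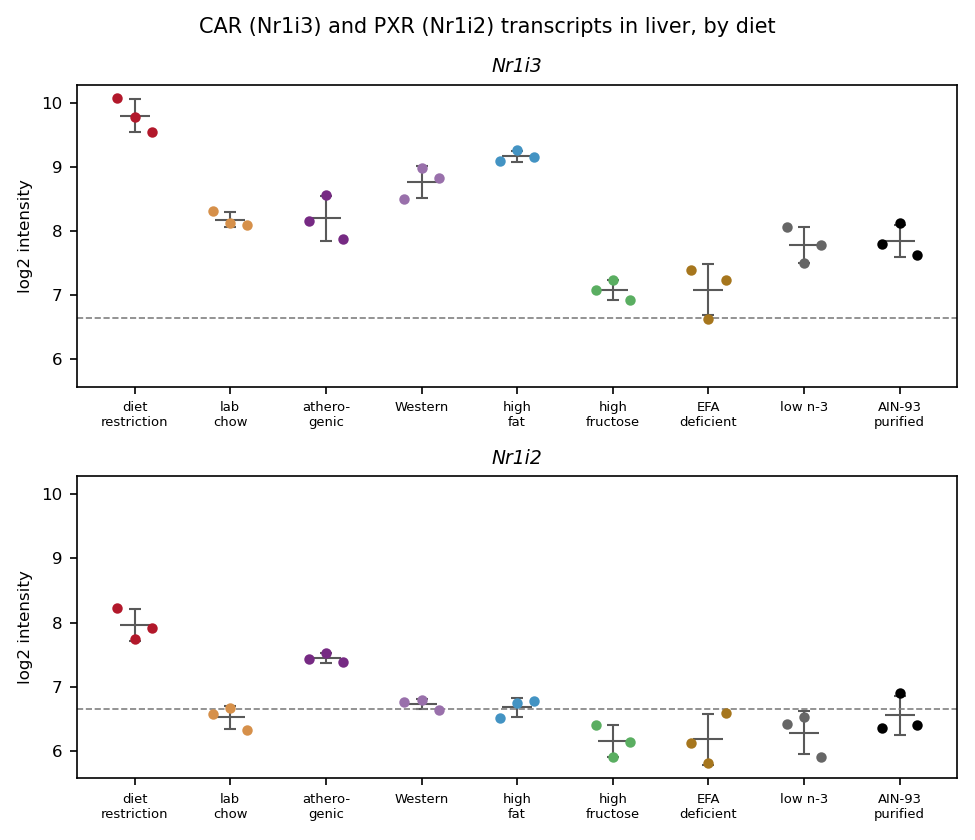
Log2 intensity of Nr1i3 (CAR) and Nr1i2 (PXR) (y axis) in each liver, by diet (x axis), with 3 mice per diet. Points are arrays, bars the mean and SD, and the dashed line the detection level of 6.64. For both genes diet-restricted livers lie above every other array, and for Nr1i3 high fat and Western livers lie above control.

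Of 10 receptors and cofactors listed, 9 were on the array as genes of their own, and Por, the P450 reductase, was not analysed here. On diet restriction 4 of the 9 rose (13.5% of all tested genes), the others being Ppargc1a, a coactivator of the fasting response, and Cyb5a, the cytochrome b5 that passes electrons to P450s. The median of the list was a log2 difference of 0.42, against -0.03 for all tested genes. On high fructose and on EFA deficient 3 of the 9 fell on each (2.73% and 2.47% of all tested genes), Nr1i3 and Rxra, the partner of both receptors, on both diets, Nr3c1, the glucocorticoid receptor, on high fructose, and Hnf4a, a hepatocyte transcription factor, on EFA deficient. The list's medians were -0.40 and -0.38, against -0.04 and -0.01 for all tested genes.

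A list of 33 other genes known as CAR or PXR targets had 27 tested members. On diet restriction 20 rose and 0 fell, where 13.5% of all tested genes were called higher, with a median log2 difference of 1.36, against -0.03 for all tested genes. On lab chow 17 rose and 0 fell, where 2.02% of all tested genes were higher (median 0.74, against -0.05). The atherogenic diet had 12 higher and 0 lower, where 9.03% of all were higher (median 0.60, against 0.03), and the high fat diet 11 and 0, where 6% of all were higher (0.45, against -0.02). The Western diet had 8 higher and 0 lower, where 4.31% of all were higher (0.40, against -0.03). High fructose gave 2 higher and 1 lower, where 1.17% and 2.73% of all were called (median 0.17, against -0.04). EFA deficient gave 1 and 0, where 3.04% and 2.47% of all were called (0.01, against -0.01), and low n-3 0 and 0, where 0.34% and 0.726% were called (0.03, against -0.03). Abcb1a entered the tests through diet restriction alone and Cyp2c55 through lab chow alone, so each had to be high there. Several of these genes are near-identical paralogs, such as the Cyp2c and Gst families, and signal shared between them was not tested. The study describes Gsta2, a gene of this list, as induced in oxidative stress. Which regulator raised the genes of the list was not tested.

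**Figure D5:**
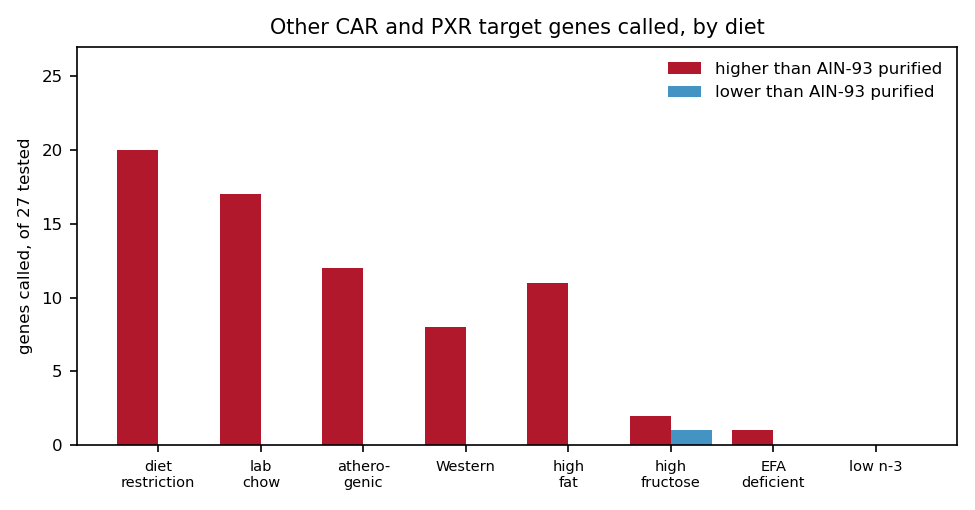
Number of the 27 tested other CAR and PXR target genes (y axis) called higher or lower than on AIN-93 purified, by diet (x axis). The counts higher are 20 on diet restriction, 17 on lab chow, 12 on atherogenic, 8 on Western, 11 on high fat, 2 on high fructose, 1 on EFA deficient and 0 on low n-3, and 1 gene was lower, on high fructose.

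By role, the oxidising and hydrolysing enzymes rose for 8 of 12 tested members on diet restriction (median log2 difference 1.24) and on lab chow (0.70), while 13.5% of all tested genes rose on diet restriction and 2.02% on lab chow. They rose for 5 of 12 on atherogenic (0.20), 5 of 12 on Western (0.52) and 6 of 12 on high fat (0.53). The shares of all tested genes there were 9.03%, 4.31% and 6%. Cyp2c37 stood at 354% of control on diet restriction (adjusted p = 4.3e-06), and Ephx1, the microsomal epoxide hydrolase, at 353% on lab chow (adjusted p = 9.8e-07), 481% on atherogenic (adjusted p = 3.7e-08), 294% on Western (adjusted p = 8.2e-06) and 215% on high fat (adjusted p = 4.5e-04). Cyp2c55 averaged 8.04 in lab chow livers, against 4.47 in AIN-93 purified livers (adjusted p = 7.5e-08), and it was lower in diet-restricted livers, at a mean of 6.40 below detection, against 8.04 in lab chow livers (adjusted p = 2.9e-04). Cyp2c55 entered the tests through lab chow alone, so neither p is support. Conjugating enzymes rose for 8 of 11 on diet restriction (median 1.28) and 7 of 11 on lab chow (0.85). They rose for 4 of 11 on atherogenic (0.60), 1 of 11 on Western (0.16) and 3 of 11 on high fat (0.26). The glutathione transferase Gsta2 stood at 2092% of control on diet restriction (1046 to 4182) and 1142% on lab chow (571 to 2284). Transporters rose for 4 of 4 on diet restriction (median 3.25, Abcb1a included), 3 of 4 with atherogenic feeding (1.31) and 2 of 4 on lab chow (1.15), Western (0.51) and high fat (0.45), where 9.03% of all tested genes rose on atherogenic, 4.31% on Western and 6% on high fat. Abcc3, which carries conjugates out of the hepatocyte into blood, stood at 406% on lab chow (262 to 629), 314% on atherogenic (203 to 487), 343% on Western (221 to 530) and 353% on high fat (228 to 547).

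Against lab chow, diet-restricted livers had 11 of the 27 targets higher and 3 lower, where 19.2% and 17.6% of all tested genes were called (median 0.22, against 0.01 for all tested genes), and the lower ones were Aldh1a1, Cyp2c29 and Cyp2c55. Cyp2c55 entered the tests through lab chow alone and Abcb1a through diet restriction alone, so both had to differ here and are no support. Against Western, atherogenic livers had 8 higher and 3 lower, where 11.3% and 6.5% of all were called (median 0.04, against 0.05), and the lower ones were Aldh1a1, Cyp2c50 and Cyp2c54.

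Since Cyp2b9 and Cyp2b13 are known from female liver, lists of transcripts known to be higher in female or in male mouse liver were counted too. All mice here were male. On diet restriction 10 of 10 tested genes of the female list rose, where 13.5% of all tested genes rose. Sult1e1, the estrogen sulfotransferase, stood at 9.53 against 2.38 in AIN-93 purified livers and Acot3, an acyl-CoA thioesterase, at 9.83 against 2.95. As with Cyp2b9, 8 of the 10 passed the filter through diet restriction alone, so this count is no support. Of 15 tested genes of the male list 14 fell on diet restriction and 0 rose, where 16% of all tested genes fell (median log2 difference -3.55, against -0.03 for all tested genes), and 9 fell on the atherogenic diet, where 5.88% of all fell (median -1.07, against 0.03). Of the 10 female-list genes 1 rose and 1 fell on the atherogenic diet (median 0), where 9.03% of all tested genes rose. The 8 that passed through diet restriction alone averaged below detection there. On lab chow the female list had 1 higher and 1 lower and the male list 1 lower, where 2.02% of all tested genes were higher and 2.19% lower. Against lab chow, diet-restricted livers had 10 of 10 genes of the female list higher, where 19.2% of all tested genes were higher. That count is again no support, for the same reason. The male list had 14 of 15 lower in this comparison, where 17.6% of all were lower (median -2.33, against 0.01).

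Across the 27 arrays the genes most like each P450 by Pearson r were searched among all other tested genes. For Cyp2b9 they were Sult1e1 (r = 0.97), 1810053B23Rik (0.97) and Fmo2 (0.96), and for Cyp2b13 they were 1810053B23Rik (1.00), Fmo2 (1.00) and Pde6c (0.99). Without the 3 diet-restricted arrays these values dropped to between -0.15 and 0.50, so they rest on that diet. For Cyp2b10 they were Fmo1 (0.92, and 0.64 over the 24 arrays without diet restriction), Sult3a1 (0.92 and 0.37) and Pir (0.91 and 0.85). Over those 24 arrays every Cyp2b10 value lay below detection, with means of 5.31 on lab chow, 3.32 on high fat and 2.67 or less on the others. Values at the floor carry no order, which limits these 24-array values. Sult3a1 entered the tests through diet restriction alone. For Cyp3a11 they were Blvrb, the biliverdin reductase B (0.86, and 0.85 without diet restriction), Ces2a (0.81 and 0.77) and Ephx1 (0.80 and 0.81). For Cyp3a13 they were Ildr2 (0.91 and 0.87), Agt (0.91 and 0.84) and Setd6 (0.89 and 0.84), and for Cyp3a25 they were Ildr2 (0.91 and 0.88), Blvrb (0.91 and 0.89) and Abcc3 (0.89 and 0.87). Among themselves, Cyp3a11 and Cyp3a25 correlated at 0.82 (0.79 without diet restriction), Cyp3a13 and Cyp3a25 at 0.82 (0.76) and Cyp3a11 and Cyp3a13 at 0.69 (0.63). Arrays of 1 diet share that diet, and these values are descriptions.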

How the data were processed

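Liver RNA of 27 mice was hybridised to an Affymetrix mouse expression array. The authors applied GCRMA, which subtracts background, normalizes across arrays and summarises probe sets, and deposited log2 intensities, which were used unchanged. Arrays were grouped by the diet in their labels. Probe sets were named by the platform table, and a probe set with no symbol or more than 1 was not used. As in the study's methods, a probe set was kept if its mean passed log2(100) on at least 1 diet. Kept probe sets of a gene were averaged.

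The diets were fitted together in limma 3.58.1 (R 4.3.3) over the 27 arrays. The p-values against AIN-93 purified were adjusted by Benjamini and Hochberg jointly over 6478 genes and 8 diets, at 0.05, and the comparison of diet restriction with lab chow, like that of atherogenic with Western, was adjusted alone. If every array of the lower group lay below log2(100), that level took the place of its mean and the fold is a bound, and if this held for both groups, no fold is given. The number of arrays limits precision.

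The genes, lists and tests were chosen with earlier results of these data known. Named genes are the 7 P450s, Nr1i2, Nr1i3 and Por, at most 2 called genes with the largest change per list and comparison, and the 3 most alike genes per P450. Other list genes were named after their values were seen. Promoter windows were read from RefSeq (GRCm38.p6), aligned globally (Biopython 1.88) and searched on both strands. The scripts were tested on simulated data. Tables and plots used data.table (version 1.17.8), Python 3.11.15, pandas 2.3.3 and matplotlib 3.10.9. Alternatives were no filter, a filter at log2(200), adjustment within each diet, fits of only the 2 groups compared, limma's trend and robust options, weights for arrays, centring, a second quantile normalization, a block for the replicate number, the Dunnett's test that the methods name (at its own p, and with an added Benjamini-Hochberg adjustment that the methods do not give for it), other gene averages and each array left out in turn. Raising values below log2(100) to that level was added after seeing the data.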

Additional observations from a re-analysis of the deposited data

How the results depend on the processing

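The number of P450s called was 6 on diet restriction and 5 on diet restriction against lab chow under every alternative run except the filter at log2(200), which left 5 and 4 because Cyp2b13 was no longer tested. On lab chow it was 3, except for 4 with array weights (Cyp3a13 added) and 2 with the floor at log2(100). Dunnett's test at its own p gave the same counts as limma on all 8 diets against AIN-93 purified, and the losses named for it below come from a Benjamini-Hochberg adjustment on top of it. On the Western diet the count was 1 with no filter and 1 with the adjusted Dunnett's test, since Cyp3a11 missed the threshold there. On the high fat diet it was 1 with no filter, with the trend and robust prior, with the floor and with the adjusted Dunnett's test, since Cyp2b10 missed it. On the atherogenic diet the adjusted Dunnett's test left 1, Cyp3a25. Array weights called 1 on high fructose and 1 on EFA deficient, Cyp3a13 lower in both. Between atherogenic and Western the count of 0 became 1 with the filter at log2(200), array weights and the floor, and 2 with the trend and robust prior. The fit of 2 groups alone lost Cyp3a13 on the atherogenic diet (adjusted p = 0.053). With the floor, Cyp2b10 on lab chow came to a difference of 0. The cause of these changes was not tested.

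Same-numbered arrays did not deviate together (correlations from -0.136 to 0.268, all above 0.1 in 0 of 10 comparisons), so the numbers were not taken as pairs. With the replicate block the atherogenic against Western count was 1 (Cyp3a25), and no other count differed by over 1.5 times.

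With 1 array left out, the counts ran from 1 to 2 on Western and high fat, from 2 to 3 on atherogenic and from 0 to 1 on EFA deficient.

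The log2 differences that changed sign were all uncalled. They were 0.080 (array weights), 0.00048 (centred arrays) and 0.015 (quantile) for Cyp3a11 on high fat, 0.0051 (centred) for Cyp3a13 on high fat, 0.010 (weights) for Cyp3a25 on EFA deficient, -0.038 (centred) for Cyp2b10 on atherogenic, 0.042 (centred) and 0.0013 (brightest probe set) for Cyp2b10 on low n-3, and, with quantile normalization, -0.0012 for Cyp2b10 on high fructose and -0.0081, -0.011 and -0.0058 for Cyp2b9 on lab chow, high fructose and low n-3. Leaving out 1 array gave -0.19 to 0.13 for Cyp3a11 and -0.084 to 0.034 for Cyp3a13 on high fat, -0.017 to 0.30 for Cyp3a11 on high fructose, -0.079 to 0.21 for Cyp3a11 and -0.018 to 0.16 for Cyp3a25 on low n-3, -0.0048 to 0.00064 for Cyp2b10 and -0.24 to 0.070 for Cyp3a25 on EFA deficient, and -0.82 to 0.97 for Cyp2b9 and -0.56 to 0.0027 for Cyp2b10 on atherogenic against Western.

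Values near 2.29 carry no order, since they lie at the floor of the deposited scale.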

Other observations

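Probe sets of 3 further Cyp2b and Cyp3a paralogs fell outside the 7 genes and were not tested. The probe set 1419704_at, which lists both Cyp3a41a and Cyp3a41b, read 6.10, 5.21 and 5.39 in diet-restricted livers and 6.47, 7.72 and 5.94 in lab chow livers, against 4.36, 4.44 and 3.83 in AIN-93 purified livers. Of these 9 arrays only the second lab chow array was above the detection level. Atherogenic livers read 5.55, 5.23 and 5.16 and Western livers 5.04, 4.87 and 4.81, all above the control arrays. Cyp3a44, the coding gene beside Cyp3a11, read 4.18, 4.77 and 3.68 in diet-restricted livers and 4.15, 4.02 and 4.62 in lab chow livers, against 2.63, 2.61 and 2.61 in AIN-93 purified livers. All these Cyp3a44 values are below detection. Cyp3a41 and Cyp3a44 are known as transcripts higher in female than in male liver, and signal reaching these probe sets from Cyp3a11 was not tested. Cyp2b19, known from skin, was within 0.01 of the lowest value on all 27 arrays.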
